A study of Homo sapiens with 6 samples.

Results

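The genes described here encode the folding, quality-control and signalling machinery of the endoplasmic reticulum (ER): its chaperones and their cofactors, the enzymes that form disulfide bonds, the ER-associated degradation (ERAD) machinery, 2 translocation channel subunits, a cargo adaptor of ER export, and the sensors and transcription factors of the ATF6 and IRE1-XBP1 branches of the unfolded protein response. They were taken by name from a list of 40 genes drawn up by function, with earlier results of these data known. All 40 were found among the 40295 gene rows of the deposited table. The PERK-ATF4 branch is not among them. HDQ-P1 cells are an established line of human cancer cells. Y-320 is a small molecule that the study found as an enhancer of premature termination codon readthrough by the aminoglycoside G418. The RNA sequencing set 3 libraries of cells exposed for 48 h to Y-320 alone, at 1 μM, against 3 libraries of untreated HDQ-P1 cells, to ask how the compound alters the transcriptome. No source mentions a solvent for the untreated cells, so the compound and its solvent cannot be told apart, and nothing states whether the replicates were separate cultures, so the p-values measure the spread between these libraries only, which may be technical.

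Proteins that enter the secretory pathway are threaded into the ER through the Sec61 channel, folded with the help of the chaperone BiP (HSPA5) and the lectins calnexin and calreticulin, and linked by disulfide bonds through the protein disulfide isomerases. Proteins that fail to fold are drawn back to the cytosol by the HRD1-SEL1L complex and degraded by the proteasome. When the load exceeds the folding capacity, BiP leaves the sensors IRE1 (ERN1), ATF6 and PERK; IRE1 splices XBP1 mRNA into the form that encodes an active transcription factor, and ATF6 travels to the Golgi apparatus, where resident proteases release its transcription factor domain. Both factors act with NF-Y at ER stress response elements (ERSE) in the promoters of chaperone and ERAD genes. Splicing of XBP1 and cleavage of ATF6 are not visible in counts per gene.

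Each library held 21045401 to 22740535 estimated counts. Of all rows, 16580 passed the filter on low counts and entered the quasi-likelihood test of edgeR, whose p-values were adjusted over all of them (Benjamini-Hochberg, threshold 0.05). The values printed per library are normalized CPM, counts scaled by TMM to a common library total, which give a gene's share of the library and not the RNA per cell. Because these are bulk samples of a cell line, fewer cells that express a gene and less of its RNA per cell cannot be told apart. Chi-square over its degrees of freedom, which sets squared differences between 2 libraries against those of sampling noise, was 1.99 to 2.96 within a group. Between libraries of different groups it was 40.5 to 42.5. Of 6 epithelial markers, all were expressed. EPCAM rose and the other 5 fell, KRT8 most, from 2811 ± 49.8 to 1384 ± 6.17 normalized CPM (SD, n = 3 each), and their summed level was 10905 to 11414 in untreated and 6828 to 6889 in treated libraries. Among 6 immune markers, PTPRC did not exceed 0.905 normalized CPM and CSF1R rose, with a summed level of 6.57 to 7.24 untreated and 12.5 to 14.9 treated. Of 4 endothelial markers, PECAM1 rose and CDH5 fell, and the summed level was 17.7 to 19.3 untreated and 14.3 to 18.3 treated. Of 6 fibroblast markers, 4 fell (COL1A1, COL1A2, LUM and PDGFRB), and the summed level was 249.5 to 285 untreated and 127 to 147 treated. Of all genes tested, 26.2% were higher and 25.4% lower at that threshold. These marker changes ran beside those of the ER genes, and their part in the result was not tested.

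Promoter sequences were not used to list the members and were searched for motifs. ERSE are known from promoters of chaperone and ERAD genes, however, and the list holds such genes. A high share of matches among the members was therefore largely set by the choice of list and gives no independent support. RefSeq windows of 250 bases before to 50 bases after a gene's start were given for 36 of the 40 members (GRCh38.p14), and DERL1, DERL3, PDIA3 and SEC24D were without one. The ERSE, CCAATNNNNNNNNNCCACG, searched on both strands, occurred in a window of 8 of these 36 members (22.2%) and of 25 of all 27305 genes with a window (0.0916%), so that 8 of the 25 genes with a match are members. The shorter ERSE-II, ATTGGNCCACG, occurred in 3 members (HERPUD1, HYOU1 and SDF2L1; 8.33%) and 19 genes in all (0.0696%), and the 8-letter XBP1 core TGACGTGG in 3 members (DNAJC10, HYOU1 and TXNDC11; 8.33%) and 0.927% of genes. In HYOU1 an ERSE-II match overlaps the XBP1 core. The letters TGACGTCA (CRE) and TTTCATCA each occurred in CREB3L2 alone among the members, against 2.25% and 1.37% of genes, and TTGCATCA, letters that ATF4 dimers are known to bind, in HERPUD1 alone, against 1.08%. A match is a run of letters and not evidence of binding. The ERSE matches, read 5′ to 3′ on the strand that matches, with the CCAAT and CCACG ends in capitals, are printed to show how the 9 bases between them vary:
HSPA5: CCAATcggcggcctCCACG
HSP90B1, distal: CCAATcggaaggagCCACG
HSP90B1, proximal: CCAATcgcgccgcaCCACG
CALR: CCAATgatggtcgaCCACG
CANX: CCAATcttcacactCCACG
CRELD2: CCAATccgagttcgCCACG
PDIA6: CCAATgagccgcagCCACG
ERO1B: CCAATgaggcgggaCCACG
XBP1: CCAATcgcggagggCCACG

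In HSPA5 the match began 66 bases before the start, in XBP1 52, in CRELD2 80, in PDIA6 86, in CALR 225 and in ERO1B 243 bases before it. HSP90B1 holds a match at 194 and another at 89 bases before its start, and in CANX a single match lies in windows of several annotated starts. The 250 bases before the starts of the members with the largest increases, HERPUD1 and HSPA5, are given in full. Only exact matches were searched for, and near matches were not marked. That of HSPA5 (chr9:125241344-125241593, minus strand, GRCh38.p14) has its exact ERSE match in capitals:
HSPA5: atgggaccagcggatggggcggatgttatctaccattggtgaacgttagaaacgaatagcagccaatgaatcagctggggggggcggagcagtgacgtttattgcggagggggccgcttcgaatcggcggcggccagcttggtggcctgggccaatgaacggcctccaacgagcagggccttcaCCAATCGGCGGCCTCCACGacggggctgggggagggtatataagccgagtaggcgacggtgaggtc

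That of HERPUD1 (chr16:56931892-56932141, plus strand, GRCh38.p14) has TTGCATCA and the ERSE-II match in capitals, the former 176 and the latter 117 bases before the start:
HERPUD1: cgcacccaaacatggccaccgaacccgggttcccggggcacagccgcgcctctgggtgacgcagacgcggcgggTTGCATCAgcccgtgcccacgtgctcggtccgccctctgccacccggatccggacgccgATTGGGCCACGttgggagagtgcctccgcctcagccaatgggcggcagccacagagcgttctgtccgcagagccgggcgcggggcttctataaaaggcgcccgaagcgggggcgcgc

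Treatment with Y-320 raised most of these genes. Of the 39 members tested, 36 (92.3%) were higher and 2 were lower at an adjusted p under 0.05 (edgeR quasi-likelihood test), while 26.2% of all genes tested were higher and 25.4% lower. Because the list was drawn up with earlier results of these data known, the difference between these shares is a description and not a test. The median log2 fold change of the 39 was 0.53, against 9.72e-04 over all genes tested, with a range from -0.57 (WFS1) to 1.29 (HERPUD1). An increase of at least 0.5 log2 units past the threshold was seen for 21 members, against 8.44% of all genes tested, and one of at least 1 log2 unit for HERPUD1 and HSPA5. Every library with Y-320 exceeded every untreated one for 36 members (29.8% of all genes tested) and below them for 2 (29.4%), CREB3L2 and WFS1, and the groups overlapped for DERL2. The filter did not shape these counts, since each tested member had at least 61 counts in every library. DERL3, which encodes a derlin known from secretory tissues, had 0, 0.5, 1, 1, 1 and 0.5 estimated counts in the 6 libraries and was not tested.

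**Figure D1:**
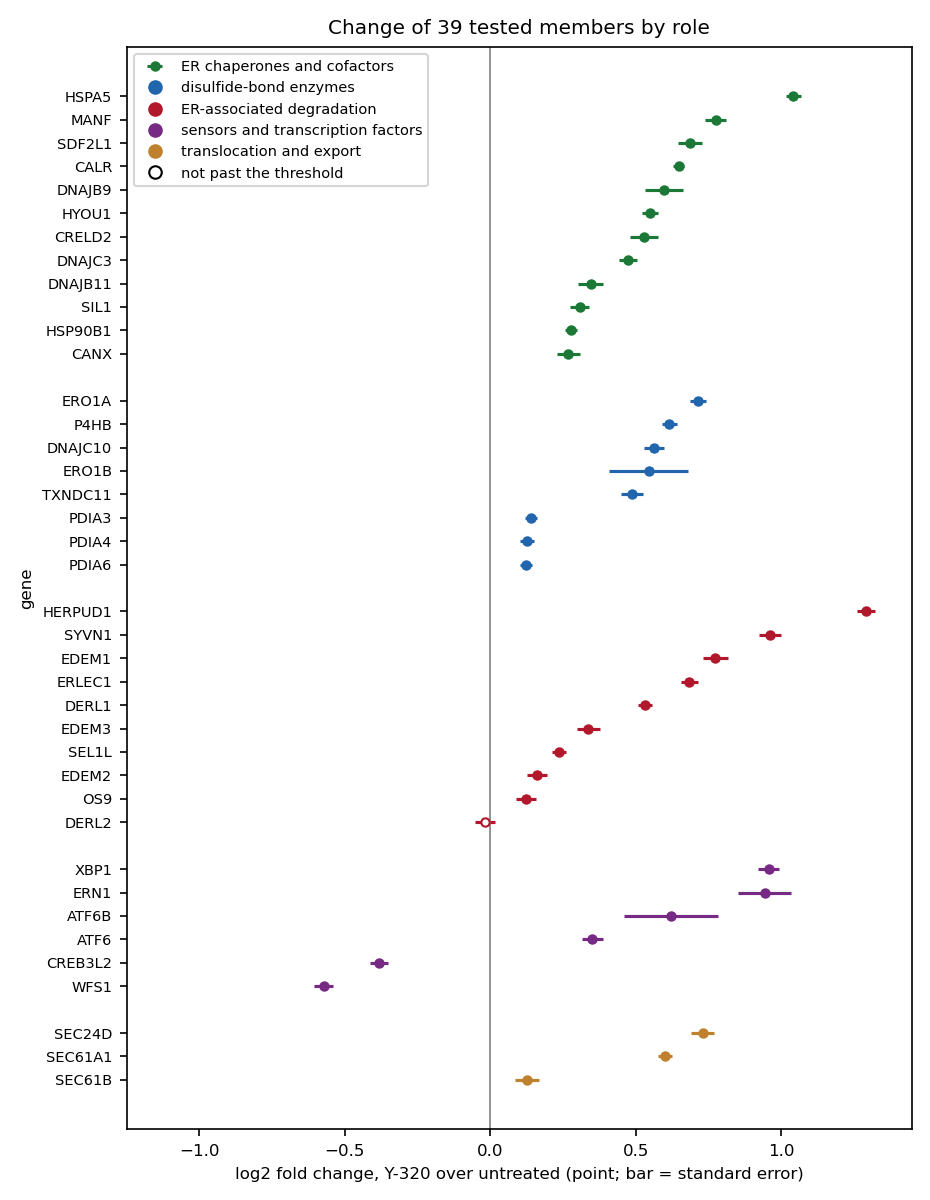
Log2 fold change of each tested member (x axis, Y-320 over untreated) by role, with 3 libraries per group. Bars are standard errors derived from the edgeR test. Points right of the line at 0 are 36 of 39 members; WFS1 and CREB3L2 lie to its left and DERL2 (open point) on it.

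All 12 chaperones and cofactors rose, while 26.2% of all genes tested were higher. The 12 had a median log2 fold change of 0.54 and an adjusted p of at most 2.25e-04 (edgeR). HSPA5 (ENSG00000044574, chr9:125234853-125241382, minus strand), which encodes BiP, the Hsp70 chaperone of the ER that also holds the stress sensors inactive, had 766, 749 and 755 normalized CPM without Y-320 (values here and from here on in the order of replicates 1 to 3) and 1502, 1577 and 1596 with it. The groups lay far apart, a 2.06-fold increase and a log2 fold change of 1.04 (standard error 0.025), adjusted p = 8.53e-10 by edgeR. In HSPA5, 13.9% of the 31-base stretches are also found in other genes, so some of its reads could be divided with copies such as HSPA5P1. HSP90B1 (ENSG00000166598, chr12:103930107-103953931, plus strand), the Hsp90 of the ER known as GRP94, had 846, 832 and 846 normalized CPM untreated and 1000.4, 1027 and 1030.5 treated. Its groups did not overlap either, but its log2 fold change of 0.28 (standard error 0.020) was the second smallest of the 12. Treated libraries lay above all untreated ones for 29.8% of all genes tested. Within each library the ratio of HSPA5 to HSP90B1 per transcript length, which does not depend on scaling, was 0.643, 0.639 and 0.633 untreated and 1.07, 1.09 and 1.10 with Y-320, an increase of 1.70-fold in the mean. With exon union lengths in place of those of the canonical transcripts, the mean ratio was 1.80 untreated and 3.06 with Y-320, so which of the pair was more abundant in untreated cells depends on the length used, while the increase does not. This pair was chosen after its values were seen, and the ratio is given as a description, with no test.

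CALR (ENSG00000179218, chr19:12938578-12944489, plus strand), which encodes calreticulin, the soluble lectin of the ER, had 1392, 1443 and 1409 normalized CPM untreated and 2213, 2186 and 2247 treated, a log2 fold change of 0.65 (standard error 0.020). CANX, its membrane-bound counterpart calnexin, rose by 0.27 (standard error 0.039), the smallest increase of the 12. Their ratio per transcript length, also chosen after its values were seen, was 31.6 ± 1.34 untreated and 41.0 ± 1.37 with Y-320 (SD, n = 3), and with exon union lengths 60.0 and 77.9. MANF, a secreted neurotrophic factor that also binds BiP, had 36.8, 36.5 and 36.3 normalized CPM untreated and 64.4, 61.9 and 61.1 treated, a log2 fold change of 0.77 (standard error 0.036). CRELD2, another secreted ER stress marker, had 30.5, 29.9 and 29.3 untreated and 43.0, 40.8 and 45.7 treated, a log2 fold change of 0.53 (standard error 0.048). Both are small proteins known to leave the cell under ER stress. SDF2L1, which works in a complex with the ER J-proteins, had 25.9, 25.2 and 25.6 untreated and 39.8, 41.6 and 42.1 treated, a log2 fold change of 0.69 (standard error 0.041). HYOU1, the nucleotide exchange factor of BiP known as GRP170, had 109, 107 and 109 normalized CPM untreated and 156, 159 and 162 treated, a log2 fold change of 0.55 (standard error 0.026). A further row of the table without a gene name holds the same values as HYOU1 in all 6 libraries, so the printed level of HYOU1 may hold only part of its reads. With identical rows summed, its log2 fold change was 0.55 as well. The other exchange factor of BiP, SIL1, rose by 0.31 (standard error 0.033).

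Of the J-proteins, which deliver clients to BiP, DNAJB9 (ERdj4, which is known to return IRE1 to its BiP-bound state) had 15.5, 14.6 and 15.2 normalized CPM untreated and 22.4, 21.5 and 24.8 treated, a log2 fold change of 0.60 (standard error 0.065). DNAJC3 (p58IPK, an inhibitor of PERK) rose by 0.47 (standard error 0.032) and DNAJB11 (ERdj3) by 0.34 (standard error 0.041). Summed over the 12 genes, normalized CPM was 3570.3 to 3586 in untreated and 5487 to 5650.4 in treated libraries.

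**Figure D2:**
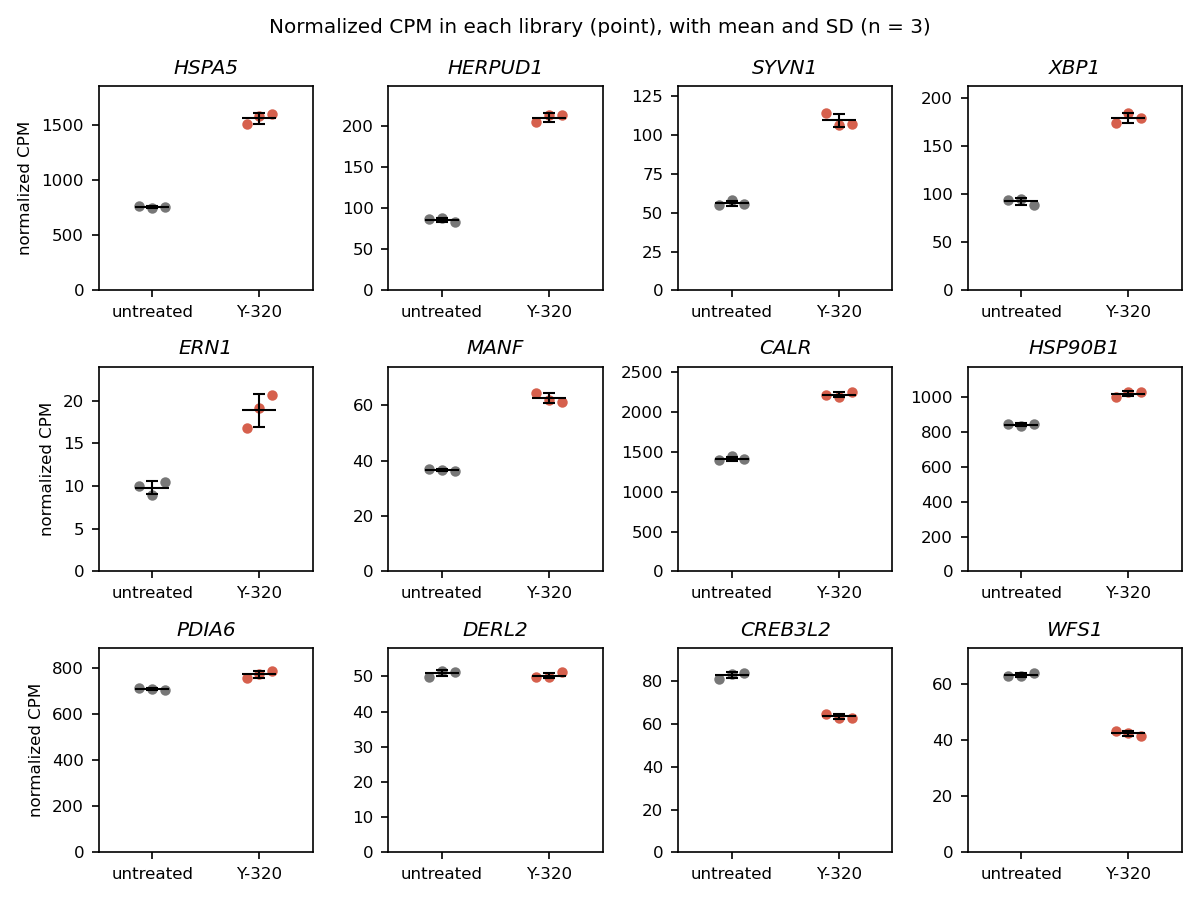
Normalized CPM of 12 members in each library (points; y axes start at 0), with mean and SD of the 3 libraries per group. HSPA5, HERPUD1, SYVN1, XBP1, ERN1, MANF and CALR stand clearly higher with Y-320, HSP90B1 and PDIA6 slightly so, DERL2 overlaps, and CREB3L2 and WFS1 stand lower.

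The 8 genes of disulfide-bond formation all rose, while 26.2% of all genes tested were higher. The 8 had a median log2 fold change of 0.52 and an adjusted p of at most 0.00666 (edgeR). The 3 isomerases PDIA3 (ERp57, the partner of the lectins), PDIA4 and PDIA6 rose by 0.14, 0.13 and 0.12 log2 units (standard errors 0.021, 0.024 and 0.021). These shifts were the smallest of the 8. All treated libraries exceeded every untreated one for each of these isomerases, as they did for 29.8% of all genes tested. In PDIA3, 16.9% of the 31-base stretches are also found in other genes, PDIA3P1 foremost. P4HB, the founding protein disulfide isomerase, had 373, 394 and 379 normalized CPM untreated and 573, 593 and 591 treated, a log2 fold change of 0.62 (standard error 0.027). ERO1A, the oxidase that recharges it and a known target of hypoxia signalling as well, had 138, 131 and 135 untreated and 217, 224 and 222 treated, a log2 fold change of 0.71 (standard error 0.029). Its paralog ERO1B was scarce, with 2.85, 3.11 and 2.76 normalized CPM untreated and 4.29, 3.80 and 4.64 treated, a log2 fold change of 0.54 (standard error 0.14). DNAJC10 (ERdj5, a reductase of ERAD clients) had 211, 199 and 197 untreated and 308, 299 and 291 treated, a log2 fold change of 0.56 (standard error 0.033). TXNDC11, a thioredoxin-like ER protein, rose by 0.49 (standard error 0.038).

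Of the 11 ERAD genes, 9 rose (26.2% of all genes tested were higher), DERL2 did not pass the threshold and DERL3 was not tested. The median log2 fold change of the 10 tested was 0.43. HERPUD1 (ENSG00000051108, chr16:56932142-56944864, plus strand), a membrane protein that organises the retrotranslocation complex and whose gene is known to respond to the ATF6, XBP1 and ATF4 factors, had 86.1, 88.0 and 83.1 normalized CPM untreated and 204, 213 and 213 treated. This was the largest increase among the 39 members, 2.45-fold or a log2 fold change of 1.29 (standard error 0.032), adjusted p = 9.07e-10 by edgeR. SYVN1 (ENSG00000162298, chr11:65121780-65134532, minus strand), the ubiquitin ligase HRD1, had 54.9, 58.0 and 55.7 untreated and 115, 107 and 107 treated, a log2 fold change of 0.96 (standard error 0.038), adjusted p = 1.85e-08 by edgeR. SEL1L, its partner in the membrane complex, rose by 0.24 (standard error 0.025).

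The mannosidase-like EDEM proteins mark misfolded glycoproteins for degradation. EDEM1 had 76.8, 67.8 and 71.5 normalized CPM untreated and 120.1, 126 and 123 treated, a log2 fold change of 0.77 (standard error 0.043). EDEM3 rose by 0.34 and EDEM2 by 0.16 (standard errors 0.039 and 0.035). Of the lectins that read the mark, ERLEC1 had 77.7, 74.0 and 75.3 untreated and 124, 121 and 120.0 treated, a log2 fold change of 0.68 (standard error 0.030). The second lectin, OS9, rose by 0.12 (standard error 0.034, adjusted p = 0.0118 by edgeR), or by 0.08 without untreated replicate 1, and 17.1% of its 31-base stretches are also found in other genes, mostly in AGAP2-AS1. Derlins are rhomboid-like proteins of the retrotranslocation site. DERL1 had 151, 153 and 149 untreated and 221, 218 and 216 treated, a log2 fold change of 0.53 (standard error 0.025), while DERL2 had 49.9, 51.5 and 51.2 untreated and 49.8, 49.7 and 51.1 treated, a log2 fold change of -0.02 (standard error 0.034), adjusted p = 0.701 by edgeR.

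Of the 6 sensors and transcription factors, 4 rose and 2 fell, beside 26.2% higher and 25.4% lower over all genes tested. XBP1 (ENSG00000100219, chr22:28794555-28800597, minus strand), whose mRNA is the substrate of IRE1, had 94.0, 95.0 and 88.3 normalized CPM untreated and 174, 185 and 179 treated. Treated libraries were 1.94-fold higher, a log2 fold change of 0.96 (standard error 0.035), adjusted p = 1.08e-08 by edgeR, and spliced and unspliced forms are counted together. ERN1 (ENSG00000178607, chr17:64039080-64130819, minus strand), which encodes IRE1 itself, had 10.0, 8.97 and 10.5 untreated and 16.8, 19.2 and 20.6 treated, a log2 fold change of 0.94 (standard error 0.090), adjusted p = 1.06e-05 by edgeR. ATF6 (ENSG00000118217, chr1:161766298-161977574, plus strand), the precursor of the cleaved factor, had 69.1, 73.7 and 68.2 untreated and 88.3, 88.9 and 92.0 treated, a log2 fold change of 0.35 (standard error 0.037). ATF6B, its paralog, had 7.24, 6.80 and 9.49 untreated and 11.5, 9.86 and 14.9 treated, a log2 fold change of 0.62 (standard error 0.16), adjusted p = 0.00847 by edgeR. The spread of ATF6B was wide in both groups, replicate 3 was the highest in each, and 17.6% of its 31-base stretches are also found in other genes.

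The 2 members that fell are both in this group, while 25.4% of all genes tested were lower. WFS1 (ENSG00000109501, chr4:6269849-6303265, plus strand), the ER membrane protein wolframin, which is known to promote the degradation of ATF6 through HRD1, had 62.8, 62.8 and 64.0 normalized CPM untreated and 43.3, 42.6 and 41.4 treated. All treated libraries lay below all untreated ones, as for 29.4% of all genes tested. The log2 fold change of WFS1 was -0.57 (standard error 0.034), adjusted p = 2.62e-07 by edgeR. CREB3L2 (ENSG00000182158, chr7:137874979-138002086, minus strand), which encodes BBF2H7, an ER-anchored factor of the same architecture as ATF6 that acts on secretory pathway genes, had 81.0, 83.3 and 83.5 untreated and 64.6, 62.8 and 62.7 treated, a log2 fold change of -0.38 (standard error 0.031), adjusted p = 2.87e-06 by edgeR.

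The 3 genes of translocation and export rose, with a median log2 fold change of 0.60, while 26.2% of all genes tested were higher. SEC24D, a COPII cargo adaptor, had 49.7, 53.3 and 54.2 normalized CPM untreated and 89.5, 85.7 and 85.4 treated, a log2 fold change of 0.73 (standard error 0.039). SEC61A1, the pore subunit of the translocation channel, had 376, 371 and 364 untreated and 574, 551 and 558 treated, a log2 fold change of 0.60 (standard error 0.024). The small channel subunit SEC61B had 81.9, 77.9 and 76.7 untreated and 82.0, 85.6 and 90.4 treated, groups that just failed to overlap, and a log2 fold change of 0.13 (standard error 0.042), adjusted p = 0.0277 by edgeR. This call was lost with DESeq2 and with upper-quartile scaling, and also without Y-320 replicate 2 or 3 or untreated replicate 2 or 3.

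The changes of members with and without an ERSE or ERSE-II match overlapped widely. The 11 with a match had a median log2 fold change of 0.55 and a range from 0.12 (PDIA6) to 1.29 (HERPUD1), and the 25 other tested members with a window had a median of 0.47 and a range from -0.57 to 0.96. HSP90B1, with 2 matches, rose by 0.28, and SYVN1, with no match to any of these motifs in its window, by 0.96. In the other direction, HERPUD1 and HSPA5, the members with the largest increases, hold an ERSE-II or ERSE match. The lowered WFS1 and CREB3L2 and the uncalled DERL2 hold neither. Whether a match goes with the change was not tested.

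Per transcript length, the members differed widely in untreated cells. On the scale of TPM (counts per kilobase of the representative transcript, scaled to a fixed library total), CALR was the most abundant at 1669 ± 15.3, followed by PDIA6 at 697 ± 7.56, HSP90B1 at 678 ± 12.5, HSPA5 at 433 ± 8.64 and P4HB at 352 ± 6.96 (SD, n = 3). The values of these 5 genes did not overlap with those of their neighbours in the order, whereas PDIA3 and SEC61B, which come next at 328 and 313 TPM, overlapped. With exon union lengths CALR (2071 TPM) and PDIA6 (709.7) kept the first places, but HSPA5 came next at 476, ahead of PDIA4 at 445, SEC61B at 267 and HSP90B1 at 264, and P4HB had 141 TPM, so the order below PDIA6 depends on the length used. At the low end on canonical lengths were ATF6B at 6.70, ERN1 at 2.79 and ERO1B at 1.31 TPM. With Y-320, HSPA5 reached 901 ± 28.6 TPM and stood above HSP90B1 (830.2 ± 13.4) and PDIA6 (768 ± 14.3; SD, n = 3), behind CALR at 2641. Together the 40 genes held 0.659, 0.652 and 0.652% of the TPM of untreated libraries and 0.924, 0.933 and 0.944% of that of treated ones. The share of HSPA5 in the sum of the members went from 6.70, 6.51 and 6.64% to 9.40, 9.78 and 9.76%. DNAJC10 has an annotated transcript of 20144 bases, which lowers its TPM, and the TPM of HYOU1 leaves out the row with identical values.

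**Figure D3:**
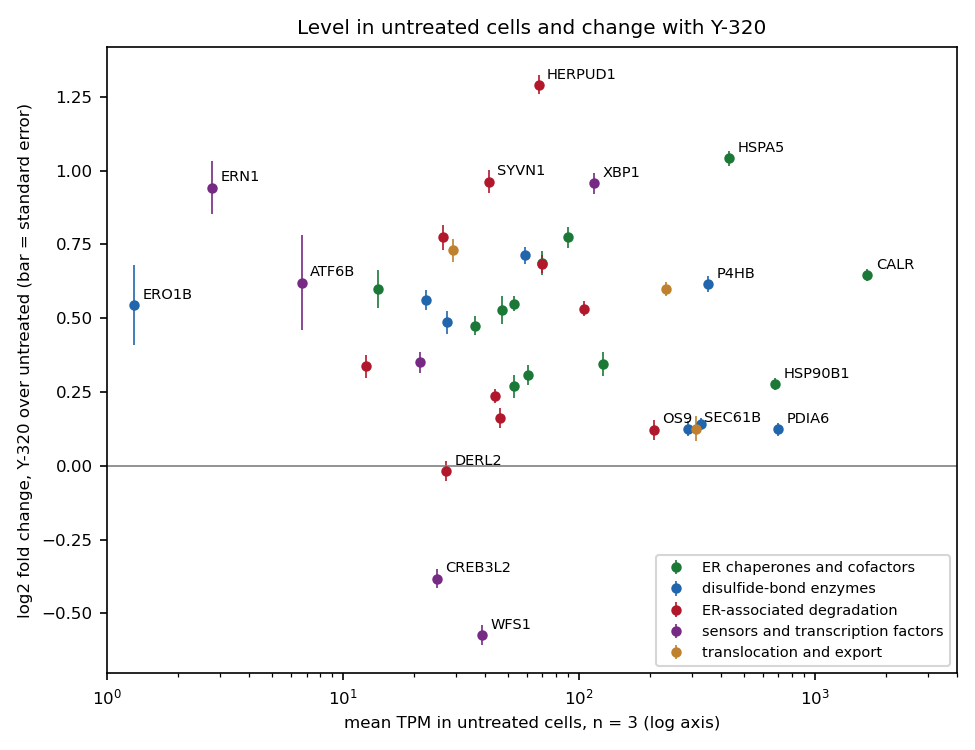
Mean TPM in untreated cells on canonical transcript lengths (x axis, log scale, n = 3) against log2 fold change with Y-320 (y axis) for 39 members coloured by role. Bars are standard errors derived from the edgeR test. HERPUD1 and HSPA5 stand highest, CALR farthest right, and WFS1 and CREB3L2 below 0; the scarcest members, ERO1B, ERN1 and ATF6B, have the longest error bars.

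Beyond the members, 96 further genes of the ER and the early secretory pathway were grouped by function, also with earlier results of these data known. Of these 96 genes, 67 rose and 16 fell, beside 26.2% higher and 25.4% lower over all genes tested. The median log2 fold change of the 96 was 0.24, beside 0.53 for the members. Of the COPII coat and early secretory genes, 17 of 17 rose and 0 fell at an adjusted p under 0.05 (edgeR; 16 and 0 with DESeq2, and 15 and 0 without untreated replicate 2), with a median of 0.52. SEC13, a shell subunit of the coat, rose from 120.0 ± 2.97 to 247 ± 6.97 normalized CPM (mean ± SD over 3 libraries per group), or a log2 fold change of 1.04 (standard error 0.031), and SEC24A, a cargo adaptor, by 0.99 (standard error 0.031). The smallest increases were those of SEC24C, by 0.15, and TMED10, a cargo receptor, by 0.08 (standard errors 0.029 and 0.029). The call of SEC24B, named for this loss, was lost with DESeq2 (adjusted p = 0.0639) and without Y-320 replicate 2 or untreated replicate 2. The call of TMED10 was lost with upper-quartile scaling and without Y-320 replicate 1 or 3 or untreated replicate 2 or 3.

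Of 24 other ER folding genes, 17 rose and 2 fell (median 0.32), beside 26.2% higher and 25.4% lower over all genes tested. The leading ones were receptors that return escaped chaperones to the ER by their KDEL tail, KDELR3, from 32.7 ± 1.16 to 83.7 ± 2.13 normalized CPM (mean ± SD over 3 libraries per group), or a log2 fold change of 1.36 (standard error 0.038), and KDELR2, a log2 fold change of 0.92 (standard error 0.022). TMX3, a thioredoxin-like isomerase, and SDF2 fell by 0.18 and 0.12 on the log2 scale, but both calls were lost with DESeq2, with library size scaling and without Y-320 replicate 1 or 3 or untreated replicate 1 or 3, and each was lost without 1 further library (Y-320 replicate 2 for TMX3, untreated replicate 2 for SDF2). SDF2 also lost its call with no filter (adjusted p = 0.0566) and with a replicate block (0.0512). Of 21 other ERAD genes, 14 rose and 4 fell (median 0.20). SELENOS, a selenoprotein of the retrotranslocation complex, rose by 0.91 (standard error 0.033) and TMUB1 by 0.53 (standard error 0.064), while VCP, the segregase that pulls clients from the membrane, fell by 0.21 on the log2 scale (standard error 0.025). Of 23 genes of the translocon, N-glycosylation and signal peptidase, 16 rose and 4 fell (median 0.19), led by SEC61G, a channel subunit, at 0.97 and SRPRA, the signal recognition particle receptor, at 0.97 (standard errors 0.056 and 0.028).

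Of 11 regulators around the members, 3 rose and 6 fell, with a median of -0.08; over all genes tested, 26.2% rose and 25.4% fell. CREB3 (Luman), an ER-anchored factor linked to Golgi stress, rose from 25.0 ± 1.37 to 60.3 ± 1.41 normalized CPM (mean ± SD over 3 libraries per group), or a log2 fold change of 1.27 (standard error 0.045), and FICD, the enzyme that switches BiP off by AMPylation, rose by 0.56 (standard error 0.19, adjusted p = 0.0284 by edgeR), a call lost with DESeq2 (adjusted p = 0.0627) and without Y-320 replicate 2 or 3 or untreated replicate 1 or 3. CREB3L1 (OASIS) fell by 1.18 on the log2 scale (standard error 0.12). MBTPS2, the site-2 protease that completes the cleavage of ATF6, fell by 0.23 on the log2 scale (standard error 0.033), opposite to ATF6 itself. For the genes listed as the PERK-ATF4 branch, 10 of 10 rose, with a median of 1.64 and a range from 1.09 (ATF4) to 2.36 (ATF3). The activity of PERK is not visible in counts per gene and was not tested. The median of the members was 0.53, and HERPUD1 was the single member above the lowest value of that branch. The list of that branch was also drawn up with earlier results of these data known. Setting it beside the members is a description and not a test.

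**Figure D4:**
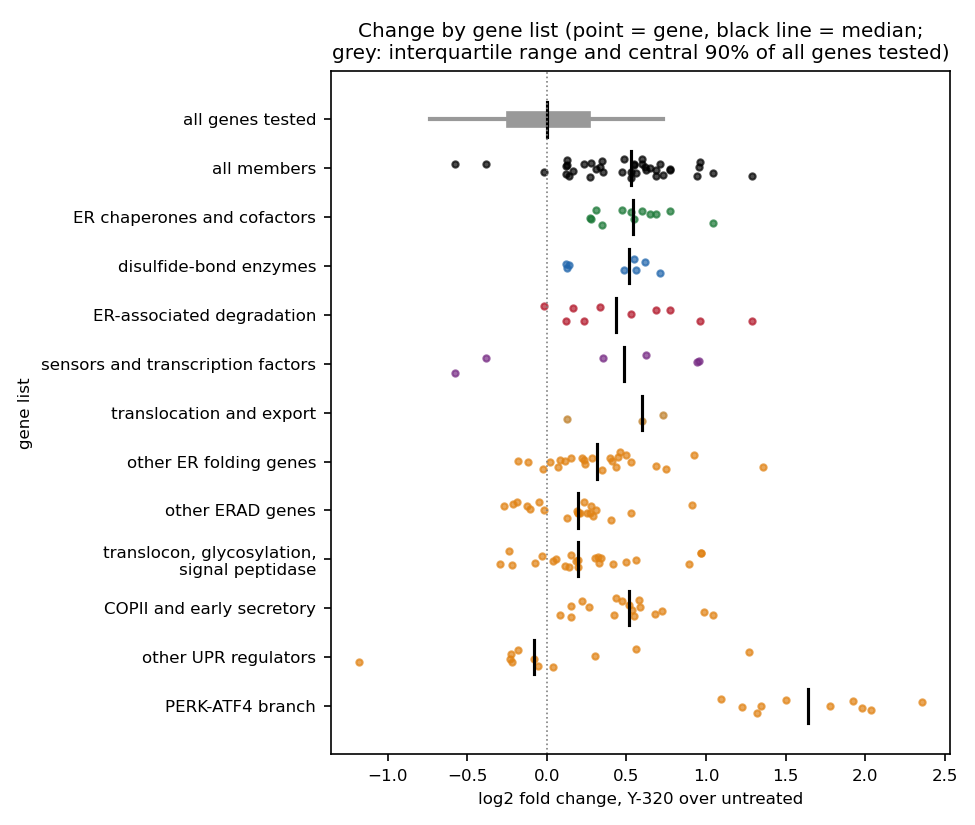
Log2 fold change (x axis, Y-320 over untreated) of the genes of each list (points, with the median as a black line), with 3 libraries per group; for all 16580 genes tested the grey bar spans the interquartile range and the thin line the central 90%. The PERK-ATF4 genes lie farthest right, every COPII gene lies right of 0, and the UPR regulators spread to both sides.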

How the data were processed

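RNA from HDQ-P1 cells, 3 untreated libraries and 3 exposed for 48 h to Y-320 at 1 μM, had been sequenced and quantified by the authors, and the deposited table holds estimated counts per gene, not normalized, for each library. The submitters' processing notes name kallisto 0.46.1 and the builds GRCh38 and hg38; the annotation release is not given in the sources used here. kallisto divides reads that match several transcripts, so 48.5% of values were not whole and genes with near-identical copies are less certain. Groups and replicates were read from the sample labels.

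Estimated counts were rounded to whole numbers, filtered with filterByExpr (minimum count 10, minimum total 15) and scaled by TMM, and 16580 genes were tested by the quasi-likelihood test of edgeR 4.0.16 in R 4.3.3, with Benjamini-Hochberg adjustment over all of them. The procedure was tested on simulated data in which 200 of 16580 genes were changed. It recovered 74.2% of changes of 0.5 log2 units, 92.4% of those of 1 and 100% of those of 2. Of its calls, 2.72% were false. Far fewer genes were changed there than were called in the data, so the simulation does not cover that setting. Totals were 21045401 to 22740535 per library, and 3 counts, taken as the floor, equal 0.132 to 0.143 CPM, which covers counting error only. Standard errors were derived as the absolute log2 fold change divided by the square root of the quasi-likelihood F statistic. TPM used the length of the GENCODE 44 canonical transcript. Gene positions are those of GENCODE 44 (hg38), and shared 31-base stretches were counted over its transcripts. Of 40295 identifiers, 35390 were matched to a symbol.

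The members and lists were chosen with earlier results of these data known. Values per library are given for members past the threshold with a change of at least 0.5 log2 units, for 8 set regulators and chaperones (HSPA5, HSP90B1, DNAJB9, HERPUD1, SDF2L1, XBP1, ATF6 and ERN1) and for members not tested; from other lists, up to 4 genes (2 highest, 2 lowest past the threshold) could be named, and some items are not reported here. Epithelial, immune, endothelial and fibroblast markers were read as lists. Values of DERL2, CREB3L2 and SEC61B per library were added after they were seen. Alternatives were DESeq2 1.42.0, limma-voom (limma 3.58.1), other scalings and filters, a threshold of 0.01, unrounded counts, a replicate block, each library left out, exon union lengths and, chosen after seeing the data, identical rows summed.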

Additional observations from a re-analysis of the deposited data

How the results depend on the processing

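The members higher with Y-320 numbered 35 or 36, and those lower 2, under every other normalization, filter and tool and without any 1 library at an adjusted p under 0.05, and 34 and 2 at 0.01. No member changed sign. SEC61B lost its call in 6 alternatives, with DESeq2 (adjusted p = 0.0545), upper-quartile scaling (0.0677), and without Y-320 replicate 2, Y-320 replicate 3, untreated replicate 2 or untreated replicate 3 (0.0589 to 0.108). The median log2 fold change of the members was 0.5031 with upper-quartile scaling and lay between 0.4813 and 0.5521 when single libraries were dropped; the cause was not tested. HSPA5 held 7.744% of the members' summed TPM in untreated cells with exon union lengths, against 6.62% with canonical transcripts, which differ in the lengths used. Exon union lengths also put HSPA5 above HSP90B1 in untreated cells (476 and 264 TPM), set P4HB at 141 against 352 TPM, and moved the untreated CALR to CANX ratio from 31.6 to 60.0. With a replicate block, 36 members were higher and 2 lower, and over all genes 4285 were higher and 4159 lower, against 4336 and 4210 without it; same-numbered libraries did not deviate together (correlations of -0.00236, 0.0155 and 0.00222), so the numbers were not taken to pair the samples. DESeq2 called 3405 genes higher and 3278 lower. Depth limits DERL3, at or under 1 count in each library, and ERO1B, at 2.91 normalized CPM in untreated cells.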

Other observations

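Values of paralogous genes of the secretory pathway, chosen after they were seen, are set side by side here. STT3A and STT3B encode alternative catalytic subunits of the oligosaccharyltransferase, the former acting during and the latter also after translocation. STT3A rose by 0.42 and STT3B fell by 0.30 on the log2 scale (standard errors 0.025 and 0.028), and their ratio per transcript length was 1.48, 1.52 and 1.57 in untreated and 2.52, 2.48 and 2.50 in treated libraries, or 1.14 and 1.86 in the mean with exon union lengths. Among the cargo adaptors of the COPII coat, SEC24A rose by 0.99, SEC24B by 0.15, SEC24C by 0.15 and SEC24D by 0.73 log2 units (standard errors 0.031, 0.042, 0.029 and 0.039), and the call of SEC24B was lost with DESeq2 (adjusted p = 0.0639) and without Y-320 replicate 2 or untreated replicate 2. Among the ER-anchored factors, CREB3 had 23.9, 26.5 and 24.5 normalized CPM untreated and 61.4, 58.7 and 60.9 treated, whereas CREB3L1 had 6.48, 5.80 and 6.02 untreated and 2.95, 2.65 and 2.49 treated. The groups overlapped for neither factor, beside 29.8% of all genes tested with all treated libraries above and 29.4% with all below. No difference between paralogs was tested.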
